A study of Homo sapiens with 6 samples.

Results

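The dual specificity MAP kinase phosphatases examined here are 10 genes chosen by name: DUSP1, DUSP2, DUSP4, DUSP5, DUSP6, DUSP7, DUSP8, DUSP10, DUSP14 and DUSP16. All 10 were present among the 19823 genes of the table, and all 10 were among the 18130 genes with more than 5 reads in at least 4 samples. The question was whether their transcripts differed between isoproterenol-treated and untreated neurons. Poly(A) RNA was sequenced from iNeurons, glutamatergic neurons differentiated from WTc11, an established line of human induced pluripotent stem cells. The study's methods describe a clonal line in which doxycycline switches on the neurogenic factor NGN2, and which carries dCas9-KRAB so that a guide RNA can silence a chosen gene. All 6 samples carried the RBM12 knockdown and none had a control guide, so every comparison was made within RBM12-depleted cells of the parental line, which has only its own, low level of β2-adrenergic receptors. There were 3 untreated samples and 3 treated with isoproterenol, a β-adrenergic agonist that raises cAMP. The labels give no dose or duration, and do not say whether samples came from separate cultures, so p-values measure the spread between these samples only.

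MAP kinases are switched on when both a threonine and a tyrosine of their activation loop are phosphorylated, and the dual specificity phosphatases remove both phosphates. The inducible, nuclear members (DUSP1, DUSP2, DUSP4 and DUSP5) are classically transcribed in response to stimuli and act as negative feedback. DUSP6 and DUSP7 are cytoplasmic and prefer ERK, while DUSP8, DUSP10 and DUSP16 prefer the stress-activated kinases JNK and p38. DUSP14 is a small, atypical member that lacks the kinase-binding domain. In neurons cAMP can act on gene expression through the transcription factor CREB, which binds the cAMP response element (CRE).

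Promoter windows of 300 bases, from 250 before to 50 after the annotated start, were matched by symbol for 8 of the 10 genes in RefSeq (GRCh38.p14), and not for DUSP4 and DUSP5. The full CRE, TGACGTCA, reads the same on both strands. It occurred 2 times in the DUSP8 window, with first bases at -118 and -74 (the first transcribed base is 0), and once in the DUSP1 window, at -125. Of all 35116 windows, 1.85% held it and 0.06%, 21 windows, held 2 or more. The half-site TGACG was searched on both strands, and each full CRE holds it 2 times, once per strand. It was found 4 times in the DUSP8 window, always inside a full CRE. The DUSP1 window also held it 4 times, and those at -172 and -111 lie outside the full CRE. The window of a second DUSP10 start held it once, and 24.55% of all windows held it. The AP-1 site TGACTCA (4.95% of windows) and the CArG box bound by serum response factor (1.29%) were in none of the windows of these 8 genes, and TATAAA (11.53%) was only in that of DUSP1. A match is a description of the sequence and not evidence of binding. The 180 bases before the start are shown 5′ to 3′ for the 2 genes with a full CRE and, for comparison, for DUSP10 at its outermost start, the gene with the largest change below. Capitals mark the full CRE. All 3 genes lie on the minus strand, at chr11:1572272-1572451 for DUSP8, chr5:172771196-172771375 for DUSP1 and chr1:221742090-221742269 for DUSP10.
DUSP8: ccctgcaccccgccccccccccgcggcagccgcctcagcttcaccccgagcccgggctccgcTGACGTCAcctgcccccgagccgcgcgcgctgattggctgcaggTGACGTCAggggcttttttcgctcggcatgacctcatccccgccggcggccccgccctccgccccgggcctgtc
DUSP1: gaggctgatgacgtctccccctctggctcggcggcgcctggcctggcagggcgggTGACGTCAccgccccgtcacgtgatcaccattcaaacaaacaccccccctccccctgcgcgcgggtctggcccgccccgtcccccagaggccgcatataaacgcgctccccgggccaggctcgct
DUSP10: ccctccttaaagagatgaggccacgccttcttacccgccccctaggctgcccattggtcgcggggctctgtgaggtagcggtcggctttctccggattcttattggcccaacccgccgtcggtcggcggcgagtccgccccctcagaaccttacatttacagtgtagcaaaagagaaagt

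**Figure D1:**
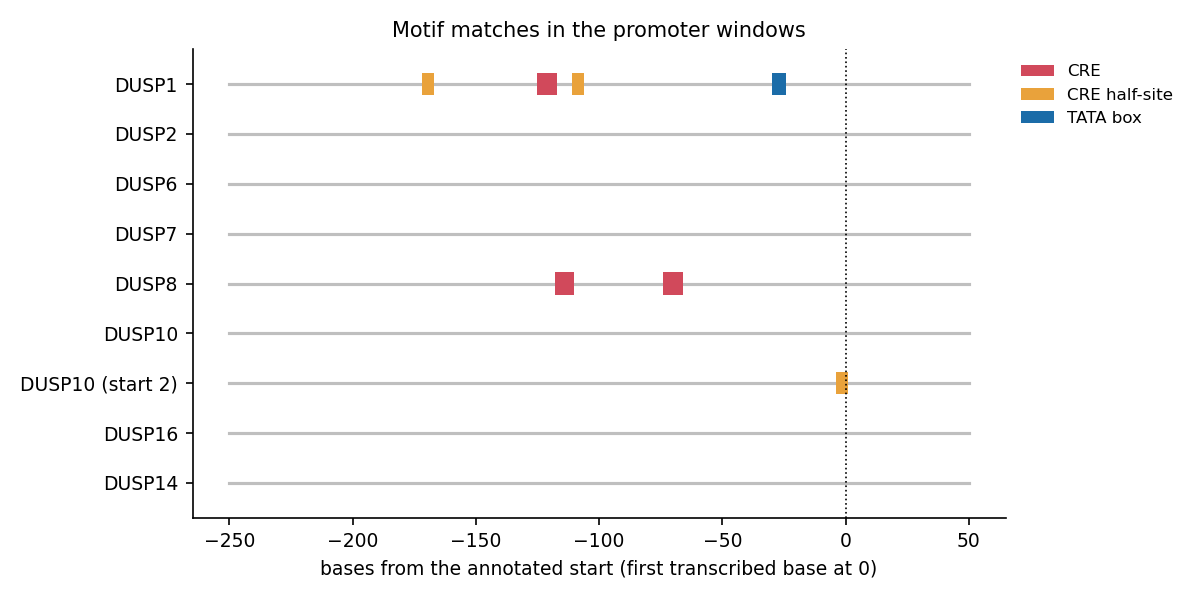
Motif matches in the RefSeq promoter windows of 8 of the phosphatase genes, each drawn from 250 bases before to 50 after the annotated start, with bases from the start on the x axis and a bar for each match. The full CRE appears at 2 positions in DUSP8 and once in DUSP1, while the first DUSP10 window is empty. Half-sites inside a full CRE are drawn as part of it.

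The libraries held 18116816 to 21488793 recovered reads. RBM12, the targeted gene, lay between 244.3 and 278.7 normalized counts in the untreated samples and between 194.6 and 237.6 in the isoproterenol samples. It did not pass the test (log2 fold change -0.25 with a limma adjusted p of 0.607, or of 0.131 once the shared replicate numbers entered the fit as a block), and the extent of its depletion could not be measured without a control guide. All 10 markers of the glutamatergic neuron list were tested. Their summed level was 164300 to 167150 normalized counts in untreated and 164200 to 168190 in isoproterenol samples. That list includes general neuronal genes such as MAP2 and TUBB3, so its sum does not separate glutamatergic from other neurons. The sums for the other lists, which hold fewer genes, were far lower. For astrocyte markers (2 of 5 in the table) they were 159.8 to 175.1 in untreated and 134.4 to 156.8 in isoproterenol samples, and for inhibitory neuron markers (3 of 3) 55.3 to 60.0 and 66.9 to 79.0. For pluripotency markers (2 of 5) they were 19.4 to 19.8 and 14.4 to 28.8, and for proliferation markers (1 of 4) 112.2 to 147.2 and 123.1 to 144.7. GFAP, SLC1A3 and ALDH1L1 (astrocytes), NANOG, DPPA4 and ZFP42 (pluripotency) and MKI67, TOP2A and CDK1 (proliferation) were not among the genes analysed. The part of the astrocyte and inhibitory neuron signals in the results below was not tested.

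None (0) of the 10 phosphatase transcripts passed a false discovery rate (FDR) of 0.05 in the limma test without pairing, in which 3 of 18130 genes (0.0165%) passed. There the smallest adjusted p of a member was 0.435. DUSP10 alone had an unadjusted p under 0.05, as did 1393 of all genes, and edgeR and DESeq2 without the block also called 0 members. When the fit took account of which samples shared a replicate number (the replicate block), 3 members passed. DUSP4 and DUSP8 rose, against 2.82% of all genes that rose past this threshold, and DUSP10 fell, against 2.06% that fell. The same 3 were called by edgeR on recovered reads with the block (5.39% of all genes in either direction). DESeq2 with the block called none (0) of them, against 0.789% of all genes, and 3 members had an unadjusted p under 0.05 there, as did 892 of all 18130 genes. The changes were small: the isoproterenol mean lay between 87.1% and 111% of the untreated mean for every member. In these bulk samples, fewer cells that make a transcript and less of it per cell cannot be told apart.

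**Figure D2:**
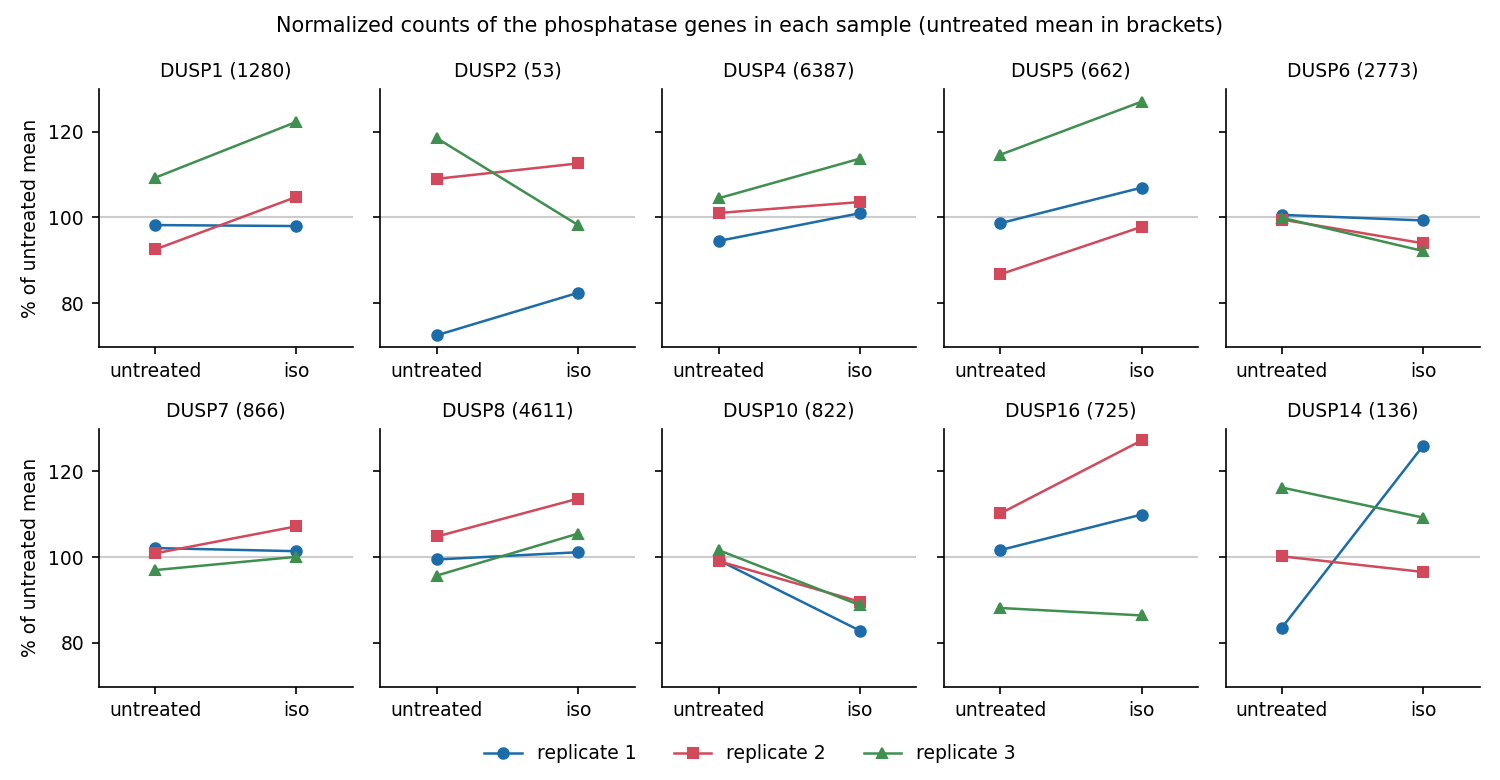
Normalized counts of the 10 phosphatase genes as a percentage of each gene's untreated mean (given in brackets), with untreated samples on the left, isoproterenol samples on the right, and lines joining samples with the same replicate number. All 3 lines of DUSP10 and of DUSP6 fall, those of DUSP4, DUSP5 and DUSP8 rise, and the lines of DUSP1, DUSP2, DUSP7, DUSP14 and DUSP16 run in both directions.

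Of the phosphatases that prefer JNK and p38, DUSP10 (MKP-5, ENSG00000143507, chr1:221701424-221742089) had the largest change of the 10 genes. Gene positions are those of GENCODE 44 on GRCh38. Untreated replicates 1, 2 and 3 held 816.6, 814.7 and 835.8 normalized counts, and the treated samples with the same numbers 681.5, 736.9 and 730.3. All 3 isoproterenol samples lay below all 3 untreated ones. The mean went from 822.4 ± 11.7 to 716.3 ± 30.3 (SD, n = 3 per group), a log2 fold change of -0.20 (SE 0.064, 95% interval -0.33 to -0.066, limma adjusted p 0.435). Taken pair by pair, the treated sample was lower each time, with log2 changes of -0.26, -0.14 and -0.19 in pairs 1, 2 and 3. With the block the adjusted p was 0.0172 (limma) and 0.0122 (edgeR), and in DESeq2 it was 0.517. The limma call with the block was lost without pair 1 (adjusted p 0.179) and without pair 3 (0.0961) and held without pair 2 (0.0268). The log2 change lay between -0.23 and -0.17 over these 3 fits.

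DUSP8 (ENSG00000184545, chr11:1554051-1572271), a phosphatase of JNK and p38, moved the other way. Its promoter window holds the pair of CREs printed above, and whether they bear on its change was not tested. Its values were 4586, 4833 and 4413 normalized counts without drug and 4664, 5240.4 and 4864 with isoproterenol. The groups overlapped, since untreated replicate 2 lay above isoproterenol replicate 1, but within each pair the treated sample was higher. The mean rose from 4611 ± 211.2 to 4923 ± 292.7 by 6.77% (log2 fold change 0.09, SE 0.028 with the block). The adjusted p was 0.0262 in limma and 0.0190 in edgeR with the block, and 0.669 in limma without it. The change was 0.02, 0.12 and 0.14 (log2) in pairs 1, 2 and 3. The blocked limma call was lost without pair 2 (adjusted p 0.201) and without pair 3 (0.370). Leaving out 1 pair at a time gave log2 changes of 0.070 to 0.13. Without isoproterenol replicate 2 the unblocked change was 0.048, and without isoproterenol replicate 1 it was 0.13.

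DUSP16 (MKP-7, ENSG00000111266, chr12:12473282-12562863), a JNK phosphatase, separated the replicates more than the treatment. It read 737.2, 799.3 and 639.3 normalized counts in the untreated samples and 797.3, 922.6 and 626.7 in the treated ones. Replicate 2 was the highest and replicate 3 the lowest in both groups, and pair 3 did not share the increase of the other pairs. Its log2 fold change of 0.10 had a 95% interval of -0.25 to 0.45 without the block and -0.017 to 0.21 with it, and it did not pass (limma adjusted p 0.923 and 0.419). Without isoproterenol replicate 2 the unblocked estimate was -0.031, and without isoproterenol replicate 3 it was 0.25.

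Among the inducible nuclear phosphatases, DUSP4 (MKP-2, ENSG00000120875, chr8:29333064-29350684) was the one that passed with the block. It measured 6035, 6452 and 6672 normalized counts without drug, and 6449, 6615 and 7261 in the samples given isoproterenol. The highest sample was treated and the lowest untreated, yet the groups overlapped. The average rose from 6387 ± 323.4 to 6775 ± 429.2 by 6.08% (log2 fold change 0.08, SE 0.025 with the block). The adjusted p with the block was 0.0261 in limma and 0.0225 in edgeR, against 0.713 in limma without it. Pairs 1, 2 and 3 gave 0.10, 0.04 and 0.12 (log2). The blocked call was lost without pair 1 (limma adjusted p 0.173) and without pair 3 (0.359). Leaving out 1 pair at a time gave log2 changes of 0.066 to 0.11. Without isoproterenol replicate 3 the change was 0.034 in the fit without the block.

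DUSP1 (MKP-1, ENSG00000120129, chr5:172768096-172771195), the prototype of the family and an early response gene, did not pass in either limma fit. Its normalized counts were 1257, 1184 and 1399 without and 1254, 1341 and 1565 under isoproterenol, and the groups overlapped. In pair 1 the samples were level (log2 fold change -0.0034), whereas pairs 2 and 3 gave 0.18 and 0.16. The log2 fold change of 0.11 had a 95% interval of -0.058 to 0.28 (limma adjusted p 0.781) and, with the block, of 0.025 to 0.20 (adjusted p 0.138). Leaving out pair 1 brought the blocked adjusted p to 0.0441 at a change of 0.17, and leaving out isoproterenol replicate 3 brought the unblocked change to 0.022.

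DUSP5 (ENSG00000138166, chr10:110497907-110511533), a nuclear phosphatase selective for ERK, was higher in every pair by a similar amount, 0.12, 0.17 and 0.15 (log2) in pairs 1, 2 and 3. It gave 652.6, 573.8 and 758.3 normalized counts in untreated samples and 707.5, 647.0 and 840.1 in treated samples. The spread between replicate numbers exceeded the difference between treatments, so the groups overlapped. With the block the 95% interval was 0.029 to 0.26 and the adjusted p 0.152 (limma), so it did not pass. In the fit without the block the change was 0.042 without isoproterenol replicate 3 and 0.25 without untreated replicate 3. A pseudogene copy, DUSP5P1, was counted separately at 28.2 ± 6.11 normalized counts untreated and 42.5 ± 9.89 with isoproterenol (limma adjusted p 0.620, and 0.214 with the block), and reads from the matching stretches may have been divided between the copies.

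DUSP2 (PAC-1, ENSG00000158050, chr2:96143169-96145440), best known from activated lymphocytes, was scarce. It had 38.6, 58.1 and 63.1 normalized counts untreated, and 43.9, 60.0 and 52.3 when treated. The pairs disagreed in direction (0.18, 0.05 and -0.27 on the log2 scale), and the 95% interval of -0.48 to 0.46 was the widest of the 10 genes. That interval includes the estimates of all 9 other members, so a change of their size could not be told from none with the spread between these samples. It did not pass (limma adjusted p 0.994, and 0.987 with the block). The sign of its estimate of -0.013 turned in 3 of the 6 fits that left out 1 sample.

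For the cytoplasmic, ERK-selective members neither transcript passed the test. DUSP6 (MKP-3, ENSG00000139318, chr12:89347235-89352501) had very close untreated values of 2789, 2759 and 2770.3 normalized counts, and the treated values of 2753, 2605 and 2555 all lay beneath them. Its mean went from 2773 ± 15.3 to 2638 ± 102.9, a log2 fold change of -0.07 (95% interval -0.17 to 0.024, limma adjusted p 0.747, and 0.237 with the block). An antisense transcript shares 1105 exonic bases with DUSP6 but had only 12.3 to 19.0 normalized counts, and whether reads were counted by strand is not stated. DUSP7 (MKP-X, ENSG00000164086, chr3:52048919-52056571) ranged from 840.0 to 884.4 normalized counts in untreated and from 866.8 to 928.4 in isoproterenol samples. Its change of 0.04 (log2) had a 95% interval of -0.087 to 0.17 and did not pass (limma adjusted p 0.918, and 0.786 with the block). It was 0.011 without isoproterenol replicate 2.

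DUSP14 (MKP-6, ENSG00000276023, chr17:37489891-37513501), the atypical member, gave 113.8, 136.4 and 158.3 normalized counts without drug and 171.6, 131.5 and 148.7 with it. Pair 1 alone carried its estimate: the log2 fold change was 0.59 in pair 1 and -0.05 and -0.09 in pairs 2 and 3. The mean change of 0.15 did not pass (limma adjusted p 0.856, and 0.644 with the block). It was 0.027 without untreated replicate 1 and 0.26 without untreated replicate 3.

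**Figure D3:**
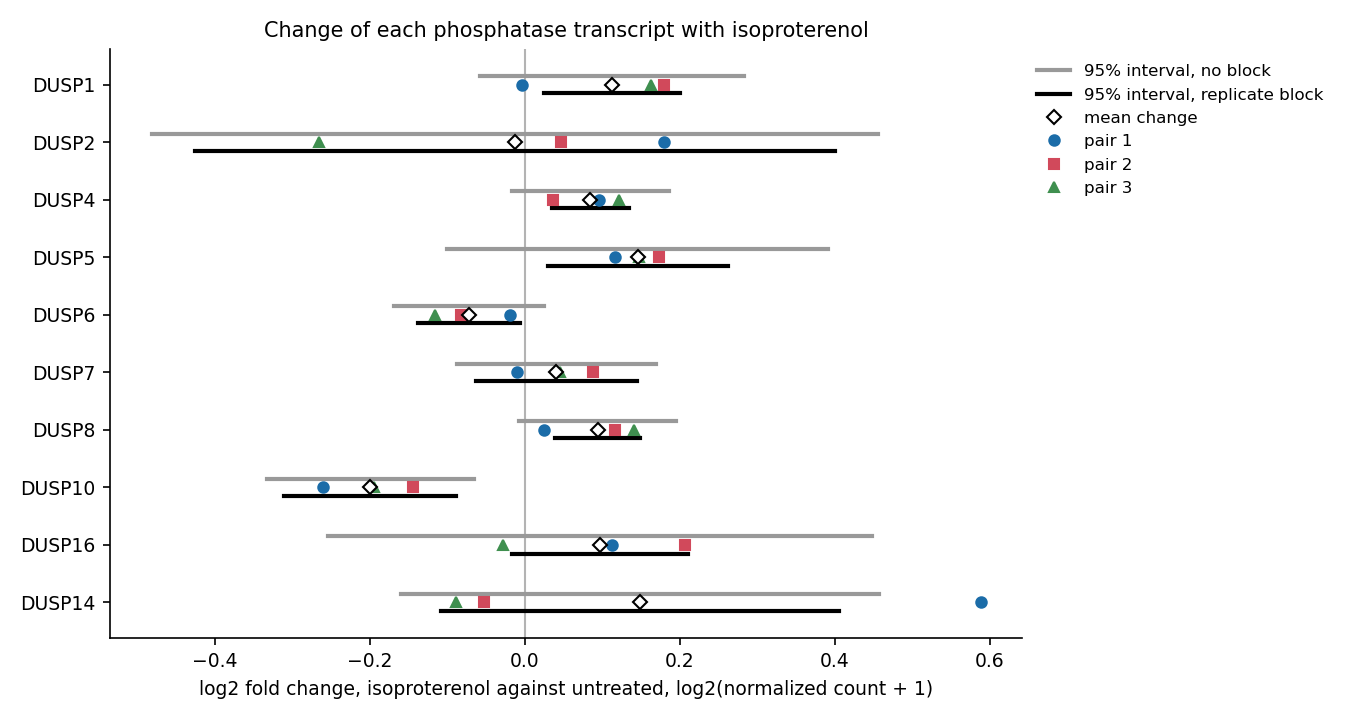
Log2 fold change of each phosphatase transcript on the x axis, isoproterenol against untreated, with the 3 pairs as coloured symbols, the mean as a diamond, and 95% intervals from limma without (grey) and with (black) the replicate block. The blocked intervals of DUSP4, DUSP8 and DUSP10 do not include 0, nor do those of DUSP1, DUSP5 and DUSP6, which did not pass after adjustment over all genes. In limma with the block, 6 of the 10 members had an unadjusted p under 0.05, as did 2929 of all 18130 genes.

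Across the 10 genes, 7 estimates were above 0 and 3 below. Of all 18130 genes tested, 9161 were above 0 and 8969 below. The members' median log2 fold change was 0.089, against 0.0015 over all genes tested. The members' median was 0.029 without isoproterenol replicate 2, 0.038 without isoproterenol replicate 3 and 0.050 without untreated replicate 1. The median of the 10 was 0.060, 0.067 and 0.0083 in pairs 1, 2 and 3. DUSP4, DUSP5 and DUSP8 were higher in each of the 3 pairs (3 of 10 members, against 18.5% of all genes) and DUSP6 and DUSP10 were lower in each (2 of 10, against 17.6%). All 3 isoproterenol values lay above all 3 untreated values in 0 of the 10 (6.73% of all genes) and below them in 2 of the 10, DUSP6 and DUSP10 (6.19%). With 10 genes these shares rest on single transcripts, and no test of the group was made.

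For some of the phosphatase genes the replicates deviated from their group means in a shared way. In 6 of the 10 genes (DUSP1, DUSP2, DUSP5, DUSP6, DUSP8 and DUSP16) same-numbered samples lay on the same side of their group means in all 3 pairs. The share of all genes with this pattern was not computed, so the count does not set the phosphatases apart from other genes. For DUSP6 the untreated deviations were very small, at 0.0085, -0.0073 and -0.0012 (log2) in replicates 1, 2 and 3. DUSP5 was highest in replicate 3 and lowest in replicate 2 under both conditions, at 0.21 and -0.20 (log2) from the untreated mean and 0.21 and -0.17 from the isoproterenol mean. DUSP16 showed the opposite order, with replicate 2 at 0.15 and 0.26 above the untreated and the isoproterenol mean and replicate 3 at -0.18 and -0.30 from them. The same-numbered samples of DUSP4, DUSP7 and DUSP10 lay on the same side in 2 of the 3 pairs. DUSP14 was furthest from the pattern, since its paired samples deviated in opposite directions in all 3 pairs. Across 11587 well-counted genes (mean 100 normalized counts or more, not independent of each other) the deviations of same-numbered samples correlated at 0.269, 0.493 and 0.388.

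Levels of different genes were compared as normalized counts per kilobase of exon. DUSP8 (961.0) and DUSP4 (904.8) led, followed by DUSP6 (701.0) and DUSP1 (662.4), as means of the 6 samples. DUSP5 (274.8) and DUSP10 (272.1) came next, then DUSP7 (155.0), DUSP16 (105.7), DUSP14 (58.8) and DUSP2 (27.3). Neighbours in this order whose sample ranges overlapped were DUSP8 and DUSP4, DUSP6 and DUSP1, and DUSP5 and DUSP10, so their order is not resolved. The 4 most abundant members lay between the percentiles 93.7 and 96.0 of all tested genes, and DUSP2 at the percentile 34.3. The inducible nuclear class thus held both an abundant member, DUSP4, and the scarcest one, DUSP2, in neurons that had received no drug as well as in treated ones. DUSP8 also has a separately counted pseudogene, DUSP8P5, at 34.9 to 55.3 normalized counts in the 6 samples.

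**Figure D4:**
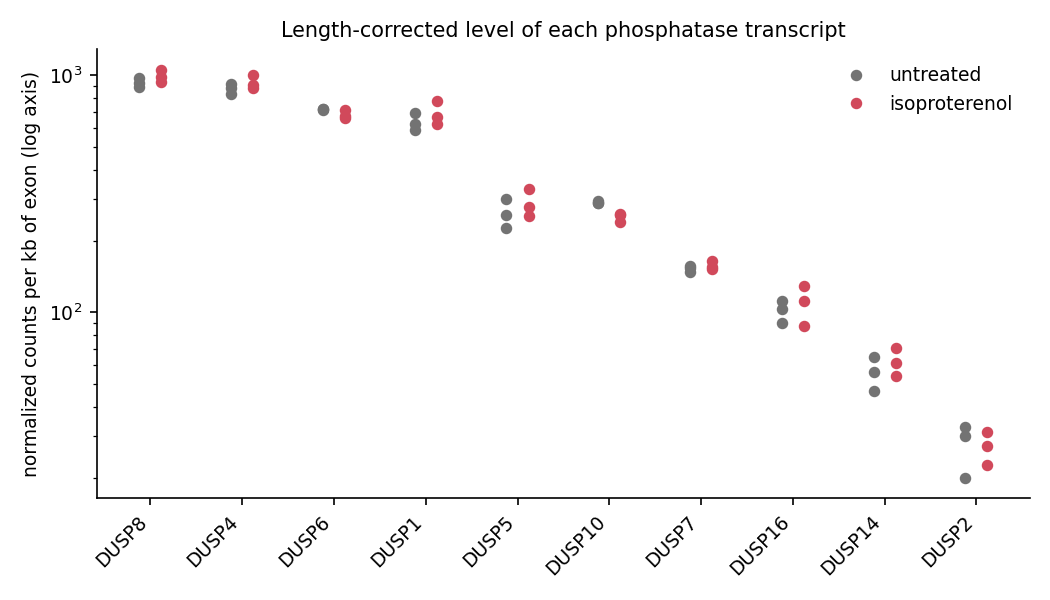
Normalized counts per kilobase of exon (log axis) of the 10 phosphatase genes in the 3 untreated (grey) and 3 isoproterenol (red) samples, ordered by mean. The genes run from 961.0 for DUSP8 to 27.3 for DUSP2, a span far wider than any difference between treatments.

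The 5 transcripts whose log2 levels over the 6 samples were most like those of DUSP10, out of 11586 searched, were NAP1L2 (a nucleosome assembly protein, Pearson r 0.993), PELP1 (a nuclear receptor coregulator, 0.990), CANX (calnexin, a chaperone of the endoplasmic reticulum, 0.988), INAFM1 (0.987) and SLC20A1 (a phosphate transporter, 0.987). These correlations describe 6 samples that share libraries and treatment, and the genes were picked as the highest. All 5 had a lower mean with isoproterenol, from -0.085 for INAFM1 to -0.14 (log2) for PELP1. This direction came with the choice of genes like DUSP10, itself lower with isoproterenol, and is not a separate result. Among the 8 other phosphatases with a mean of at least 100, DUSP6 was the most like DUSP10 (r 0.490), and DUSP14 the least (-0.482).

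The remaining MAP kinase pathway gave context for these sizes. Over all genes tested, limma with the block called 2.82% higher and 2.06% lower. With the block, edgeR called 5.39% and DESeq2 0.789% of all genes in either direction. Of 13 other dual specificity family members tested, 1 passed with the block: STYX, a catalytically inactive relative, fell to 397.4 ± 11.4 normalized counts from 467.9 ± 35.2 in untreated samples (log2 fold change -0.23, limma adjusted p 0.0441 with the block, 0.511 without). Of 10 other phosphatases that act on MAP kinases 0 passed in limma with the block, where 2 had an unadjusted p under 0.05 (as did 2929 of all 18130 genes), and edgeR with the block called 1, PPM1A (-0.091), named after its value was seen. Their median was -0.055 (log2), with 8 of 10 lower, as were 8969 of all 18130 genes. Of 14 MAP kinases 0 passed in limma or in edgeR with the block (3 at an unadjusted p under 0.05 in limma), with a median of 0.045. Of 19 upstream kinases 0 passed in limma with the block (2 at an unadjusted p under 0.05), edgeR with the block called MAP2K2 (-0.11, also named after its value was seen), and the median was -0.0046.

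Of 26 ERK pathway adaptors and feedback inhibitors, 3 rose and 0 fell in limma with the block (2.82% and 2.06% of all genes). There edgeR with the block called 4, these 3 and NRAS, a Ras GTPase, at -0.11 (adjusted p 0.0494 in edgeR and 0.0710 in limma, named after its value was seen). RASGRP1, an activator of Ras, rose from 45.7 ± 8.30 to 79.5 ± 17.3 normalized counts (log2 fold change 0.78, limma adjusted p 0.00516 with the block, 0.273 without). The ERK feedback inhibitors SPRY3 and SPRY4 rose by 0.29 and 0.16 (log2, with limma adjusted p 0.00728 and 0.00193 with the block). The unblocked SPRY4 change was 0.079 without untreated replicate 2 and 0.23 without untreated replicate 3. Of 21 MAP kinase substrates, 5 rose and 0 fell in limma with the block (2.82% and 2.06% of all genes). ETV4 and ETS2, ETS family transcription factors, rose by 0.19 each (adjusted p 3.63e-05 and 4.42e-04 in limma with the block). The unblocked ETV4 change was 0.093 without untreated replicate 2, 0.10 without isoproterenol replicate 3 and 0.29 without isoproterenol replicate 2. ATF2, the survival protein MCL1 and the ribosomal S6 kinase RPS6KA2 rose by 0.10, 0.10 and 0.06 (limma adjusted p 0.0451, 0.0336 and 0.0314 with the block), and RPS6KA2 did not pass in edgeR with the block (adjusted p 0.0638). DESeq2 with the block called 1 of the 103 genes tested in these 6 lists, ETV4 (adjusted p 0.0441), against 0.789% of all genes. It gave 0.147 for ETS2, 0.288 for SPRY4, 0.443 for SPRY3 and no adjusted p for RASGRP1. Its adjusted p was higher than these for STYX (0.679), MCL1, ATF2 (0.702) and RPS6KA2 (0.711). The limma calls of ETV4 and ETS2 with the block held without each of the 3 pairs. Those of STYX (adjusted p 0.0663 to 0.271), MCL1 (0.0680 to 0.314), ATF2 (0.0756 to 0.306) and RPS6KA2 (0.0754 to 0.428) were lost without any of the 3. RASGRP1 was lost without pair 1 (0.0632) or pair 3 (0.0826), SPRY3 without pair 1 (0.0543) or pair 2 (0.178), and SPRY4 without pair 1 (0.103). None (0) of the 103 passed in limma without the block, where 7 had an unadjusted p under 0.05 (1393 of all 18130 genes did), nor in edgeR or DESeq2 without the block. Whether any of them differed from the 10 phosphatases was not tested.

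**Figure D5:**
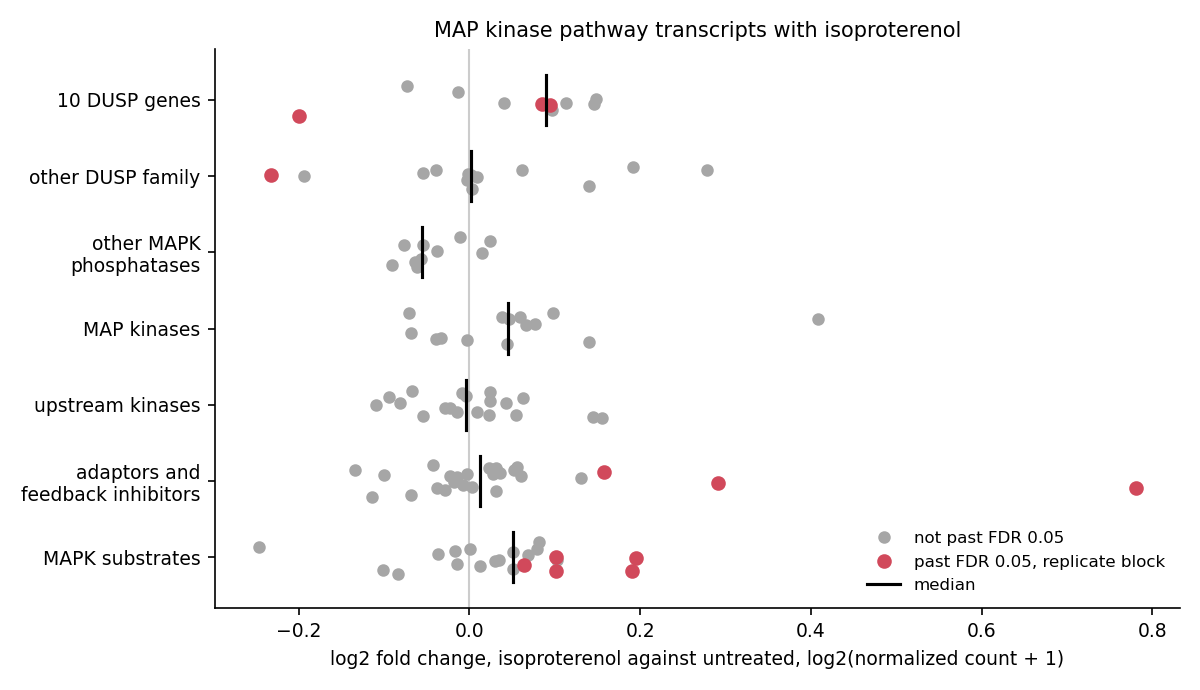
Log2 fold changes, isoproterenol against untreated, of the 10 phosphatase genes and of 6 lists of MAP kinase pathway genes, with a vertical bar at each median and red points for genes past FDR 0.05 in limma with the replicate block. The red points are 3 of the 10 phosphatases, STYX, 3 adaptors and feedback inhibitors, and 5 substrates. Over all genes, 2.82% rose and 2.06% fell past this threshold.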

How the data were processed

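The authors sequenced poly(A) RNA with a directional kit (per the labels), aligned reads to GRCh38 with STAR, counted them per gene with featureCounts and normalized with DESeq2. Tool versions, the annotation and the strand setting are not given in the sources used here. The deposited signal is the read count divided by 1 size factor per sample: in each of the 6 columns 100% of the values above 0 were whole multiples of 1 step (within 0.01), which gave back whole reads. Because the values are normalized, limma 3.58.1 (R 4.3.3; trend, robust, two-sided) was fitted to log2(normalized count + 1) over 18130 genes with more than 5 reads in at least 4 samples, as in the study's methods, which removed 1693. P-values were adjusted by Benjamini-Hochberg over all genes tested, and fold changes on this scale understate those of scarce genes. edgeR 4.0.16 and DESeq2 1.42.0 were run on the recovered reads. Samples were grouped and numbered from their titles. Same-numbered samples deviated together in all 3 pairs (correlations above 0.1), so the numbers were taken as pairs, and the blocked fit, listed as an alternative, is printed where it changes a call. Samples of 1 group differed by more than sampling noise (chi-square per degree of freedom 4.27 to 7.49). The fits were tested on simulated data whose changes were larger than those of the members, so recovery of changes of the members' size was not tested. Exon lengths and positions came from GENCODE 44 (99.59% of gene identifiers found). Named are the 10 members, up to 5 genes of each pathway list past FDR 0.05 with or without the block, the 5 genes most like the member of largest change (mean of at least 100), and RBM12. The members and lists were chosen with earlier results of these data known. Counting precision is limited by depth, and intervals reflect the spread between samples.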

Additional observations from a re-analysis of the deposited data

How the results depend on the processing

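Pairing the samples changed the counts most. Without the block 3 genes and 0 members passed FDR 0.05; limma with the replicate block called 885 genes and 3 members, edgeR with it 977 and 3, DESeq2 21 genes without it and 143 with it, and 0 members each time. TMM and total-count scaling, a pseudocount of 5, no filter and a filter in at least 3 samples left 0 members called, with member medians of 0.087 to 0.093. Leaving out 1 sample at a time without the block gave 2 (without untreated replicate 1) to 67 genes (without isoproterenol replicate 2) and member medians of 0.029 to 0.090, and leaving out 1 pair with the block gave 531, 665 and 456 genes and 2, 2 and 0 members (without pairs 1, 2 and 3). DUSP2 ran from -0.22 to 0.12 (log2) when 1 sample was left out and from -0.11 to 0.11 when 1 pair was, DUSP16 from -0.031 to 0.25 with 1 sample out, DUSP14 from -0.071 to 0.27 with 1 pair out, and RPS6KA2 from -0.031 to 0.14 with 1 sample out. The 3 calls with the block did not outlast leaving out each pair in turn, and with pair 3 left out 0 members passed. With 4 samples these fits have fewer degrees of freedom. How far depth limits DUSP2 and DUSP14, the scarcest members, was not tested.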
